A study of Mus musculus with 12 samples.

Results

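The genes examined here are 10 regulators of oxidative and lipid metabolism: the peroxisome proliferator-activated receptors Ppara, Ppard and Pparg, the retinoid X receptors Rxra and Rxrg, the estrogen-related receptors Esrra and Esrrg, the coactivators Ppargc1a and Ppargc1b (PGC-1α and PGC-1β), and the corepressor Nrip1. They were taken by gene symbol from a table of 24421 entries, and all 10 were found. Their mRNA was compared in the tibialis anterior, a fast hindlimb muscle, of 6 C57Bl/6 mice (WT) and 6 mdx/mTR mice, all males of 4 months with no treatment named. The mdx allele disrupts dystrophin, the protein that ties the muscle cytoskeleton to the membrane, and mTR denotes the RNA component of telomerase. The labels give no mice with only one of these alleles, no generation and no allele state, so the contributions of the 2 loci cannot be told apart. They do not say how the mice are related. The p-values set the difference between the groups against the spread of these 12 libraries within their groups.

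PPARs are ligand-activated transcription factors that bind DNA as heterodimers with an RXR and respond to fatty acids and their derivatives. ERRs are orphan receptors that bind DNA without a known natural hormone and drive genes of the respiratory chain and fatty acid oxidation. Neither PGC-1 protein binds DNA itself: they dock on PPARs, ERRs and other factors and recruit the transcription machinery, while Nrip1, also called RIP140, docks on the same receptors and represses them.

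In mdx/mTR muscle, 7 of the 10 genes were lower and 0 were higher at an adjusted p below 0.05, where 23.4% of all 13937 tested genes were lower and 25.0% higher (edgeR quasi-likelihood test, Benjamini-Hochberg over all tested genes). Esrrg fell most, to 39.7% of its WT level, followed by Ppara (56.8%), Ppargc1b (58.4%), Rxrg (63.6%), Esrra (73.3%), Rxra (77.3%) and Nrip1 (80.1%). Ppard, Pparg and Ppargc1a did not pass the test. The median log2 fold change of the 10 genes was -0.41, against 0.01 for all tested genes. For 5 of the 10 (Ppara, Rxra, Rxrg, Esrra and Esrrg) the groups did not overlap, which was so for 25.2% of tested genes. At an adjusted p below 0.05, 48.3% of tested genes changed in one direction or the other. All 10 genes passed the filter on low counts. Without WT replicate 2 and mdx/mTR replicate 5 together, a choice made after seeing the data, 6 genes were lower (Nrip1 no longer passed) and 1, Pparg, was higher.

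Each WT library held 36903560 to 40981012 counts and each mdx/mTR library 35136327 to 60330410. Levels are CPM, library-size-normalised counts after scaling by the trimmed mean of M-values (TMM). Scaling factors were 0.929 to 0.971 in WT and 0.988 to 1.16 in mdx/mTR, and when libraries were scaled by their totals only, the median over all genes moved from 0.01 to 0.17 on the log2 scale, so changes are given relative to the TMM scaling. Dmd, the dystrophin gene, stood at 19.7% of WT (edgeR adjusted p 8.3e-10). The muscle identity of the libraries was checked on 7 mature fast fibre markers, with a summed level of 140018 to 170300 CPM in WT libraries and 108801 to 151590 CPM in the others. Of these 7, 1 was lower (Myh4), and 6 did not pass. Of 6 slow fibre markers 4 were higher and 1, Myl3, was lower, with summed levels of 67.3 to 186 CPM in WT libraries and 53.0 to 180 CPM in the others. All 5 markers of regenerating fibres, 7 of 8 macrophage markers and 5 of 6 fibroblast markers were higher in mdx/mTR. In bulk muscle, fewer cells of a type and less RNA per cell cannot be told apart.

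Stretches of promoter are shown for 5 of the genes, each picked because a searched motif lies near one of its starts. Of these genes 4 were lower and Ppargc1a did not pass. Pparg and Ppard had matches too (AGGTCA and TGACG) but are not shown, and neither passed the test. No searched motif was found for Esrra, Ppargc1b and Nrip1, which were lower too. Whether a motif bears on these levels was not tested. The stretches are sequences of RefSeq on GRCm38.p6, 5′ to 3′ on the strand of the gene, and end at or next to the base before a RefSeq start site. For Rxra that start is an internal one, at 27709292 in a gene that begins at 27676440. The start for Rxrg is internal too, at 167618265 in a gene that begins at 167598384. Those for Ppara and Esrrg also lie inside their genes. The Ppara start is at 85735776 and the gene begins at 85734983. The Esrrg start is at 187609006 and the gene begins at 187608791. Which starts this muscle uses was not tested. Capitals mark the motif matches named in the next paragraph, and everything else is in lower case.
Esrrg, chr1:187608906-187609005, plus strand: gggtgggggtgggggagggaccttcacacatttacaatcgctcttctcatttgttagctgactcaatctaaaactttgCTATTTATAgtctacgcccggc
Ppara, chr15:85735716-85735775, plus strand: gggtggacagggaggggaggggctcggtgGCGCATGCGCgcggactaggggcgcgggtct
Rxra, chr2:27709192-27709291, plus strand: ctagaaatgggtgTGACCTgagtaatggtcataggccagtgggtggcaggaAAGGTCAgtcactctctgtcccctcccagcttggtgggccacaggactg
Rxrg, chr1:167618165-167618264, plus strand: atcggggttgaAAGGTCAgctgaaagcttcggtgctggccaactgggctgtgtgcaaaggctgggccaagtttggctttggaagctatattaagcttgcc
Ppargc1a, chr5:51567727-51567825, minus strand: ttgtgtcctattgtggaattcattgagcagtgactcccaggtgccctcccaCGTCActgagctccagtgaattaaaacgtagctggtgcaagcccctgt

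Motifs were searched on both strands in windows from 250 bases before to 50 after each start, of which the table has 32851 in all and 17 for these genes. The capitals in the Esrrg stretch are CTATTTATA, part of a form of the binding site of the muscle factor MEF2, which also reads as a TATA-like run on the other strand; 0.429% of all windows hold it. The Ppara stretch holds GCGCATGCG on both strands in overlapping matches, most of a palindromic form of the site of nuclear respiratory factor NRF1, found in 1.75% of windows. The nuclear receptor half-site AGGTCA occurs in 16.3% of windows and in 4 of the 17, those of Pparg (both of its matches in separate windows), Rxra and Rxrg. Its extended form AAGGTCA, which overlaps it and is the core that ERRs bind, occurs in 4.72% of windows and, among these genes, in 1 window each of Rxra and Rxrg. The cAMP half-element TGACG, read as CGTCA in the Ppargc1a stretch, occurs in 20.8% of windows and in those of Ppara, Ppard and Ppargc1a. The full ERR element TCAAGGTCA (0.423% of windows), the direct repeat that PPAR and RXR bind together, AGGTCA followed after any 1 base by a second AGGTCA, (0.0396%) and the full cAMP element TGACGTCA (1.79%) were in 0 of the 17 windows. A match describes these letters only, and their absence from a window says nothing of sites elsewhere.

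Among the PPARs, Ppara was lower, and Ppard and Pparg did not pass. Ppara (chr15:85734983-85802819), the receptor that drives fatty acid oxidation genes in liver, heart and muscle, ran from 28.5 CPM through a median of 39.4 CPM to 48.0 CPM in WT. In mdx/mTR it ran from 17.1 CPM through a median of 21.96 CPM to 28.4 CPM. All 6 mdx/mTR libraries were below all 6 WT libraries, though only just at the border, with WT replicate 5 at 28.5 CPM and mdx/mTR replicate 3 at 28.4 CPM. Its log2 fold change was -0.82 ± 0.14 (SE; edgeR adjusted p 0.000416).

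Ppard (chr17:28232700-28301474), the PPAR linked to oxidative metabolism and endurance in muscle fibres, ran from 39.4 CPM through 42.1 CPM (median) to 45.6 CPM in WT. The mdx/mTR values ran from 34.7 CPM through 39.3 CPM (median) to 44.9 CPM. Of the mdx/mTR libraries, 3 of 6 lay below every WT library and 0 lay above. The log2 fold change was -0.12 ± 0.06 (edgeR adjusted p 0.139). Scaling by totals only turned the sign (0.04), and leaving out mdx/mTR replicate 6 brought the fall past the test (-0.16, edgeR adjusted p 0.0336).

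Pparg (chr6:115360951-115490399), the master regulator of adipocytes that also acts in macrophages, was the scarcest member, with 85 to 234 counts per library. It ran from 2.36 CPM through 3.04 CPM (median) to 5.69 CPM in WT mice, and from 3.36 CPM through 3.62 CPM (median) to 4.46 CPM in mdx/mTR. The highest value of all belongs to WT replicate 2, and the other WT libraries reach at most 3.40 CPM. With all libraries the log2 fold change was 0.14 ± 0.18 (edgeR adjusted p 0.554). Without WT replicate 2 Pparg was higher in mdx/mTR (0.35 ± 0.12, edgeR adjusted p 0.0261). The summed level of 8 adipocyte markers overlapped between groups, 196 to 242 CPM in WT mice and 168 to 233 CPM in mdx/mTR. Of those 8, 7 were tested: Cebpa was higher, Fabp4 was lower and 5 did not pass, among them Adipoq, the adiponectin gene, at 3.07 ± 0.346 CPM in WT mice and 3.16 ± 1.499 CPM in mdx/mTR mice. The 8 macrophage markers summed to 91.5 to 156 CPM in WT mice and 252 to 675 CPM in mdx/mTR. The part of these cells in the Pparg level was not tested.

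**Figure D1:**
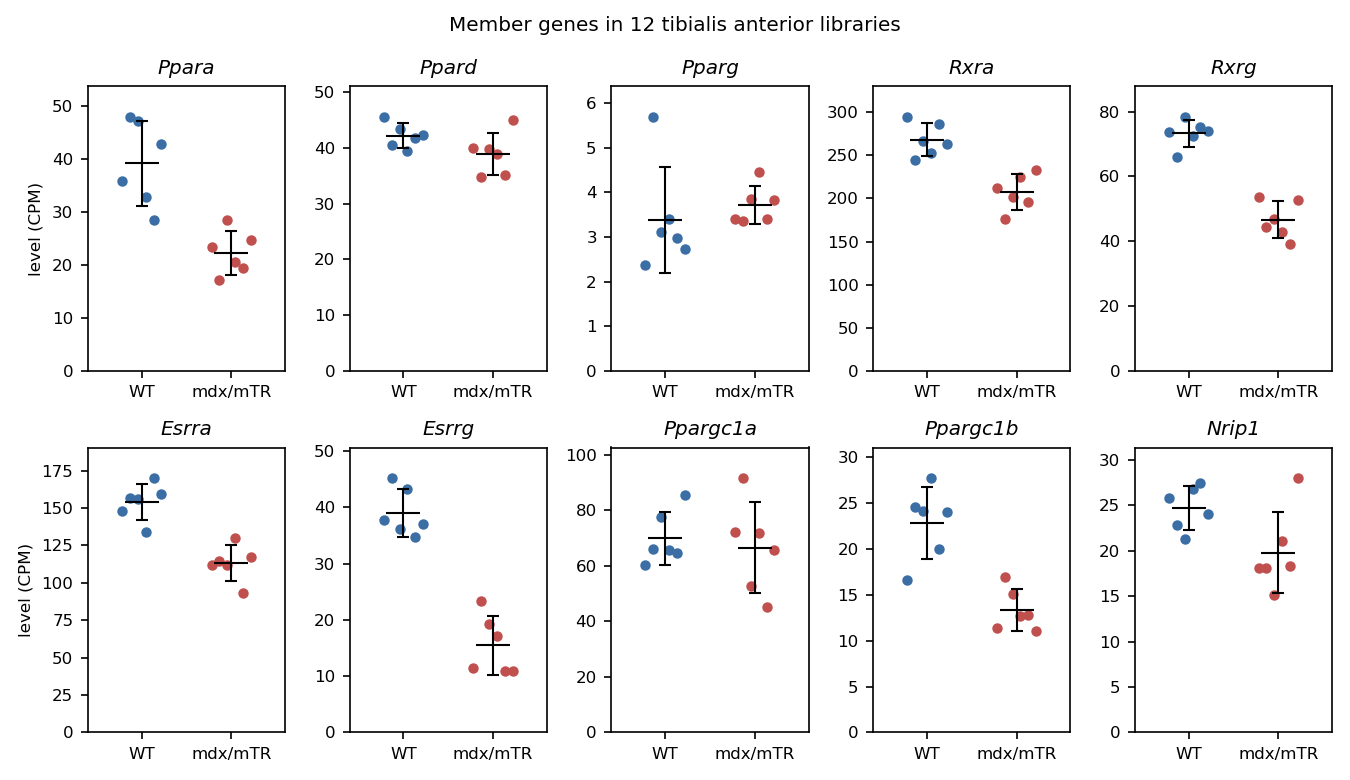
Level of each gene in every library, in CPM on a linear axis from 0, for WT (left, blue) and mdx/mTR (right, red). Points are mice in replicate order, and the bar is the mean with its SD over 6 mice; Esrrg and Rxrg are widely separated, Ppargc1a and Ppard overlap, and the single high WT point of Pparg is replicate 2 at 5.69 CPM.

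Both RXR genes were lower. Rxra (chr2:27676440-27762957), the widely expressed partner of the PPARs, ran from 245 CPM through 265 CPM (median) to 295 CPM in WT mice and from 177 CPM through 207 CPM (median) to 233 CPM in mdx/mTR. The groups did not overlap, and the log2 fold change was -0.37 ± 0.07 (edgeR adjusted p 0.000742). Rxrg (chr1:167598384-167639623), an RXR enriched in skeletal muscle, ran from 66.1 CPM through 73.8 CPM (median) to 78.5 CPM in WT mice and from 39.1 CPM through 45.7 CPM (median) to 53.6 CPM in mdx/mTR. It had the smallest p of the 10 genes (-0.65 ± 0.07, edgeR adjusted p 1.4e-05), with the lowest WT library well above the highest mdx/mTR library. The RXR gene that is no member, Rxrb, was lower too, from 57.2 ± 4.08 to 43.9 ± 3.61 CPM (-0.38 ± 0.06, edgeR adjusted p 0.000296).

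The ERR genes were lower, Esrrg by more than Esrra. Esrrg (chr1:187608791-188214885), the ERR of oxidative fibres and heart, ran from 34.8 CPM through 37.4 CPM (median) to 45.2 CPM in WT. In mdx/mTR it ran from 10.9 CPM through 14.3 CPM (median) to 23.3 CPM, and no library of one group reached the other. Within mdx/mTR, replicates 2, 3 and 4 had 23.3, 19.2 and 17.1 CPM, and replicates 1, 5 and 6 had 11.5, 10.9 and 10.9 CPM. The log2 fold change was -1.33 ± 0.18 (edgeR adjusted p 5.4e-05), and 0.969% of tested genes had a lower one.

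Esrra (chr19:6910977-6921813), the most studied partner of PGC-1α on respiratory chain genes, ran from 134 CPM through 157 CPM (median) to 170 CPM in WT mice and from 93.1 CPM through 113 CPM (median) to 130 CPM in mdx/mTR. The groups did not overlap (-0.45 ± 0.07, edgeR adjusted p 0.000277). Exons of Trmt112 on the opposite strand and of a microRNA overlap 3.74% of its exonic bases, and the strand handling of the counts is not given in the sources used here. The ERR gene that is no member, Esrrb, was named after its values were seen: it had 9.07 ± 1.29 CPM in WT mice and 1.91 ± 0.905 CPM in mdx/mTR mice (-2.27 ± 0.24, edgeR adjusted p 7.9e-06).

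The PGC-1 coactivators differed from each other. Ppargc1a (chr5:51454250-51567726), which is induced by exercise and cold and drives mitochondrial biogenesis, ran from 60.4 CPM through 65.9 CPM (median) to 85.5 CPM in WT. It ran from 45.3 CPM through 68.7 CPM (median) to 91.6 CPM in mdx/mTR, a wider spread that includes all WT values. The log2 fold change was -0.07 ± 0.14 (edgeR adjusted p 0.706), and the sign turned when scaling used totals only (0.08) or left out mdx/mTR replicate 5 (0.02). Ppargc1b, which shares many partners with PGC-1α and in muscle promotes oxidative fibres, ran from 16.6 CPM through 24.1 CPM (median) to 27.8 CPM in WT mice and from 11.0 CPM through 12.8 CPM (median) to 17.0 CPM in mdx/mTR. Only WT replicate 1, at 16.6 CPM, lay below an mdx/mTR library, replicate 2 at 17.0 CPM. The log2 fold change of Ppargc1b was -0.78 ± 0.13 (edgeR adjusted p 0.000277).

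Nrip1 (chr16:76287400-76373827), whose product restrains oxidative genes in muscle and fat, ran from 21.3 CPM through 24.9 CPM (median) to 27.5 CPM in WT mice and from 15.1 CPM through 18.2 CPM (median) to 28.02 CPM in mdx/mTR. Of the mdx/mTR libraries, 5 were below every WT library, and replicate 6 was above every one. Its call was the least firm of the 7 (-0.32 ± 0.12, edgeR adjusted p 0.0454): 9 of the 12 fits without 1 library gave an adjusted p above 0.05, the exceptions being those without WT replicate 2, WT replicate 3 and mdx/mTR replicate 6. Without mdx/mTR replicate 6 its log2 fold change was -0.44 (edgeR adjusted p 0.00135).

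**Figure D2:**
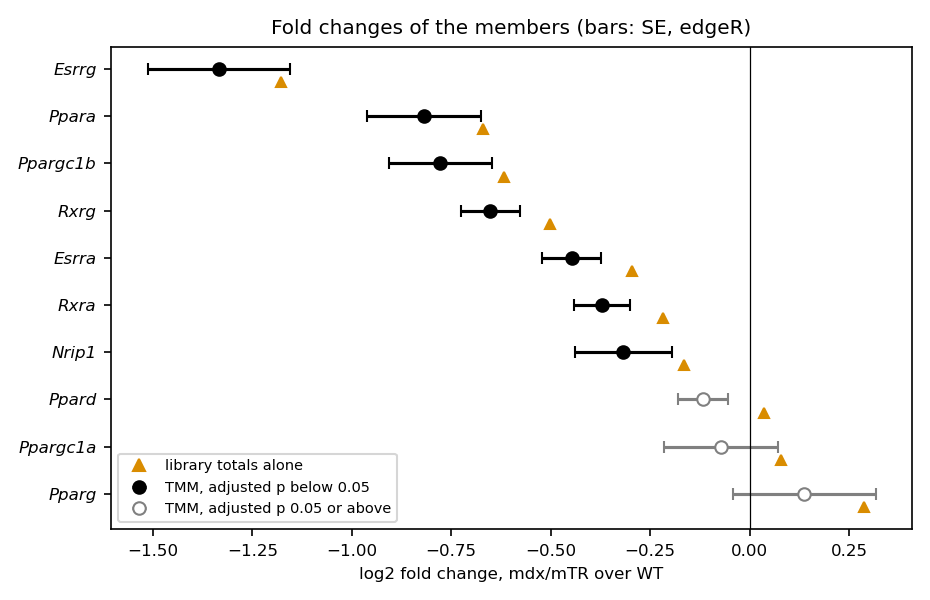
Log2 fold change of each gene, mdx/mTR over WT, with its SE from edgeR under TMM scaling (filled black, adjusted p below 0.05; open grey, not), and the value scaled by library totals (triangles). Every triangle lies to the right of its point, and those of Ppard (0.04) and Ppargc1a (0.08) lie above 0 where the TMM values lie below it.

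Single mice did not move all members one way. Among mdx/mTR libraries, replicate 2 was highest for 3 genes (Ppargc1a, Ppargc1b and Esrrg) and lowest for 4 (Ppara, Ppard, Pparg and Rxra). Replicate 6 was highest for 3 (Ppard, Rxra and Nrip1) and lowest for 2 (Ppargc1b and Esrrg). Replicate 5 was highest for 0 and lowest for 3 (Ppargc1a, Rxrg and Esrra).

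Levels of different genes were compared per length, as CPM per kb of the longest coding transcript in GENCODE M21, which may not be the isoform muscle makes. In WT, Esrra was highest at 68.8 ± 5.38 CPM per kb, then Rxra (54.7 ± 3.93) and Rxrg (34.7 ± 1.94). Next came Ppard (12.9 ± 0.668), Ppara (11.5 ± 2.35) and Ppargc1a (10.8 ± 1.48), 3 neighbours whose ranges overlapped. Esrrg (7.26 ± 0.782) and Ppargc1b (6.25 ± 1.07) overlapped as well, and Nrip1 (3.14 ± 0.307) and Pparg (1.59 ± 0.559) were lowest, and their ranges did not overlap. The ranges of Esrra and Rxra overlapped slightly, from 59.9 to 60.1 CPM per kb. In mdx/mTR the order changed in the middle: Ppargc1a, at 10.3 ± 2.52 CPM per kb, stood above Ppara (6.52 ± 1.19), and Ppargc1b (3.65 ± 0.624) above Esrrg (2.88 ± 0.971), with overlapping ranges in both pairs.

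**Figure D3:**
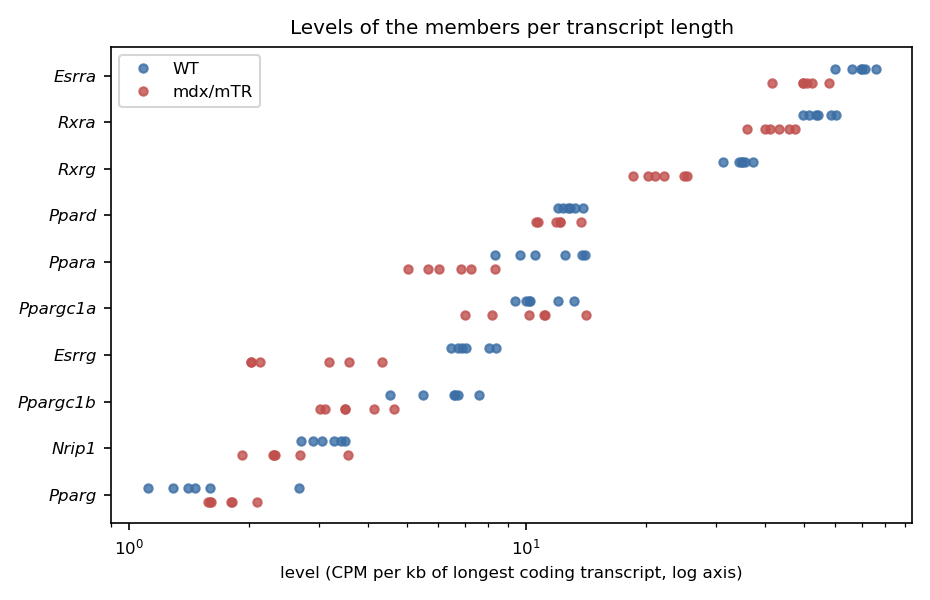
Level of each gene per length (CPM per kb of longest coding transcript, log axis), 1 point per mouse, WT in blue and mdx/mTR in red. Esrra, Rxra and Rxrg lie at 18.5 CPM per kb or more in every library, and all other genes at 14.2 or less.

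Ratios of 2 members counted in the same library do not depend on scaling, and 6 pairs were compared as log2 ratios of counts (pseudocount 0.5) with two-sided exact permutation tests, adjusted over the 6; the smallest p possible is 0.00216. Esrrg relative to Esrra was lower in mdx/mTR by 0.94 on the log2 scale, from -1.99 ± 0.238 to -2.93 ± 0.438 (mean ± SD, 6 mice a group), without overlap (exact permutation p 0.00216, adjusted p 0.00649). Pparg relative to Ppara was higher by 0.9996, from -3.57 ± 0.409 to -2.57 ± 0.262 (exact permutation p 0.00216, adjusted p 0.00649), also without overlap. Ppard relative to Ppara was higher by 0.69 (exact permutation p 0.00433, adjusted p 0.00866), outside the WT range in 5 of 6 mdx/mTR libraries.

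Ppargc1b relative to Ppargc1a was lower, -2.30 ± 0.381 against -1.62 ± 0.240 in WT (exact permutation p 0.0130, adjusted p 0.0156), outside the WT range in 4 of 6 libraries. Rxrg relative to Rxra was lower too, -2.16 ± 0.170 against -1.87 ± 0.0868 (exact permutation p 0.00649, adjusted p 0.00974), again in 4 of 6. Nrip1 relative to Ppargc1a was -1.74 ± 0.419 against -1.50 ± 0.296 and did not pass (exact permutation p 0.286, adjusted p 0.286).

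**Figure D4:**
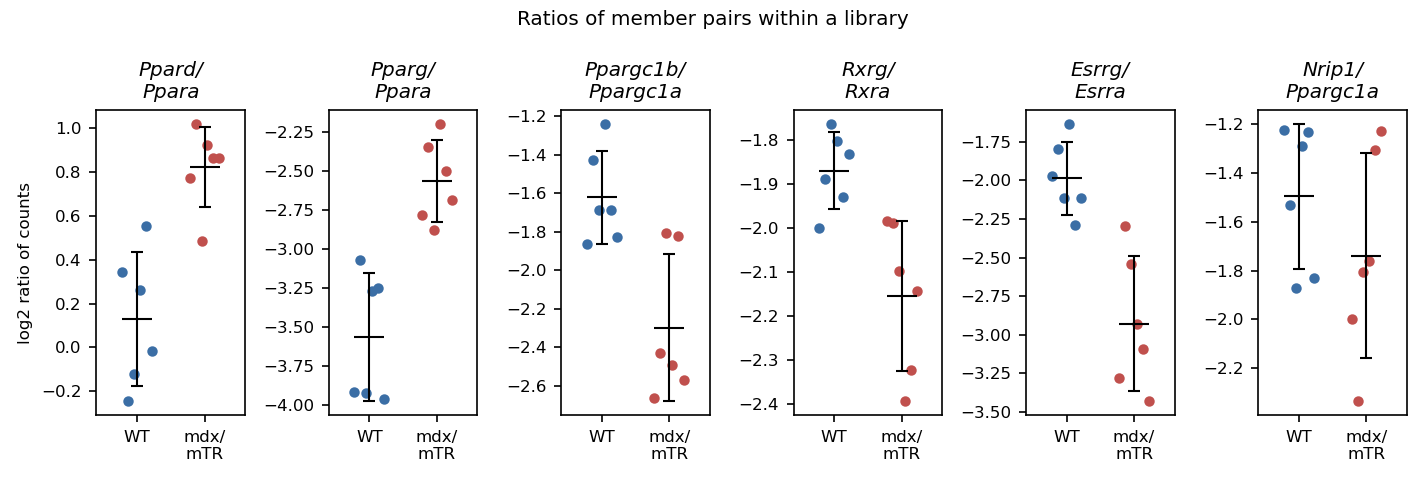
Log2 ratio of the counts of 2 genes in the same library for 6 pairs, WT in blue and mdx/mTR in red, 1 point per mouse, with mean and SD over 6 mice. The groups do not overlap for Pparg/Ppara and Esrrg/Esrra, and they overlap most for Nrip1/Ppargc1a.

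The other 42 genes of the nuclear receptor superfamily were taken whole for comparison, a list written after the values of the 10 genes had been seen. Of these, 29 were tested, 7 were lower (24.1%, against 23.4% of all tested genes) and 2 higher, with a median log2 fold change of -0.12. The lower ones included Esrrb, Nr6a1, Rora, Nr1d2 and Rxrb; those higher were Rara and Esr2, the latter at no more than 27 counts in a library. Among the 7 receptors that are members, 5 were lower.

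For the 7 lower members, genes with the most similar course over the 12 mice were found among genes of at least 5 CPM. The measure was the root-mean-square difference of log2(CPM + 0.5) values centred on each gene's mean over both groups. It therefore includes the difference between groups and is no measure of mouse-by-mouse likeness alone. Log2 fold changes were -0.37 for Rxra and -0.38 for its nearest gene, but -1.33 for Esrrg and -1.04 for its nearest. Rxra was nearest to Adipor1, an adiponectin receptor gene, at 0.0218 log2 units, followed by Tulp4 (0.0319). Esrra was nearest to Acot13 (0.0634) and Rps6ka2 (0.0663), and Rxrg to Dlg1 (0.0788) and Kpna1 (0.0789). The nearest genes were D1Ertd622e (0.117) and Txnrd1 (0.118) for Nrip1, Dach1 (0.154) and Nceh1 (0.156) for Ppargc1b, and Adgrf5 (0.165) and Alpl (0.171) for Ppara. For Esrrg they were Klhl34 (0.238) and Rhou (0.290). These differences grow with a gene's own spread over the 12 mice, a root-mean-square of 0.219 log2 units for Rxra and 0.750 for Esrrg, so they do not rank the genes by closeness of match.

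Targets and partners were read from 6 lists. Of 27 genes known as PPAR targets in fatty acid handling, all tested, 22 were lower (81.5%) and 2 higher, with a median log2 fold change of -0.55 against 0.01 for all tested genes. Lpl, the lipase that releases fatty acids at the capillary wall, had the smallest p (-1.32 ± 0.12, edgeR adjusted p 2.8e-06). Mlycd, which removes the malonyl-CoA that blocks fatty acid entry into mitochondria, fell from 148 ± 12.1 to 89.9 ± 8.05 CPM (-0.72), and Acot2, a mitochondrial acyl-CoA thioesterase, from 36.9 ± 9.16 to 14.5 ± 2.44 CPM (-1.35). Cd36, the fatty acid transporter, fell as well (-0.81). The most abundant gene of the list, Pdk4, which shuts off pyruvate dehydrogenase, did not pass, at 3164 ± 857 CPM in WT mice and 2617 ± 653 CPM in mdx/mTR (-0.27 ± 0.19, edgeR adjusted p 0.248). The higher genes included Cpt1a, the form of carnitine palmitoyltransferase typical of liver (0.40), which was named after its values were seen. Lpl and Cd36 are also made by or act at capillaries, and of 6 endothelial markers 4 were lower (summed level 445 to 594 CPM in WT, 351 to 456 CPM in mdx/mTR). The part of endothelial cells in these values was not tested.

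Of 22 genes that ERRs and PGC-1 proteins are known to drive in oxidative metabolism, 15 were lower (68.2%) and 0 higher, with a median of -0.25. The count rests on the scaling: by totals only, 6 were lower and 0 higher. Perm1, a muscle gene induced by PGC-1 and ERRs, fell from 495 ± 57.8 to 295 ± 73.5 CPM (-0.74 ± 0.15, edgeR adjusted p 0.000989). Sod2, the mitochondrial superoxide dismutase (-0.45), and Cycs, cytochrome c (-0.44), fell without overlap of the groups. The most abundant, Atp5b of ATP synthase, did not pass (-0.16, edgeR adjusted p 0.113).

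Nuclear genes that run mitochondrial transcription changed little in size: 5 of 9 were lower and 1 higher, with a median of -0.19. Tfam, which packages and transcribes mitochondrial DNA, went from 59.2 ± 2.997 to 51.1 ± 4.80 CPM (-0.21), and Polrmt, the mitochondrial RNA polymerase, from 41.3 ± 2.20 to 34.9 ± 2.49 CPM (-0.24). Yy1 (-0.19) and Gabpa (-0.12) were lower and Gabpb1, the partner of Gabpa, was higher (0.27). Scaled by totals only, 0 of these 9 were lower and 2 higher.

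Of 18 tested coactivators and corepressors, 8 were lower and 1 higher, with a median of -0.09, and scaled by totals only 6 were lower and 4 higher. The higher one, named after its values were seen, was Tbl1xr1, a corepressor complex subunit (0.26, edgeR adjusted p 0.0180). Nr0b2 had 0 counts in all 12 libraries. The acetyltransferase genes Ep300 (-0.47 ± 0.06, edgeR adjusted p 3.5e-05) and Kat2b (-0.43) fell, as did the corepressor Ncor1 (-0.26), the steroid receptor coactivator Ncoa3 (-0.35) and Lpin1, a lipid phosphatase that also assists PGC-1α (-0.49). Among 9 tested RXR relatives and partner receptors, 1 was lower (Rxrb) and 1 higher (Rara, a retinoic acid receptor, 0.34 ± 0.11, edgeR adjusted p 0.0190), with a median of -0.14. The thyroid receptor Thra (-0.02), the oxysterol receptor Nr1h2 (-0.14) and Nr4a1 (-0.45 ± 0.22, edgeR adjusted p 0.113) did not pass.

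Of 18 kinases and factors that act upstream of PGC-1α, 8 were lower and 1 higher, with a median of -0.10, but scaled by totals only 4 were lower and 5 higher. Prkab2, a subunit of the energy sensor AMPK abundant in muscle, fell from 721 ± 51.7 to 533 ± 70.2 CPM (-0.44). Fnip1, a partner of AMPK that restrains oxidative metabolism in muscle (-0.61), the calcineurin subunit Ppp3cb (-0.34) and Mef2d (-0.26) fell too. The higher one, likewise named after its values were seen, was the AMPK subunit Prkaa1, from 21.8 ± 1.59 to 26.8 ± 3.16 CPM (0.30). Mef2c, the most abundant of the list, did not pass (946 ± 64.5 and 953 ± 104 CPM; 0.01).

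**Figure D5:**
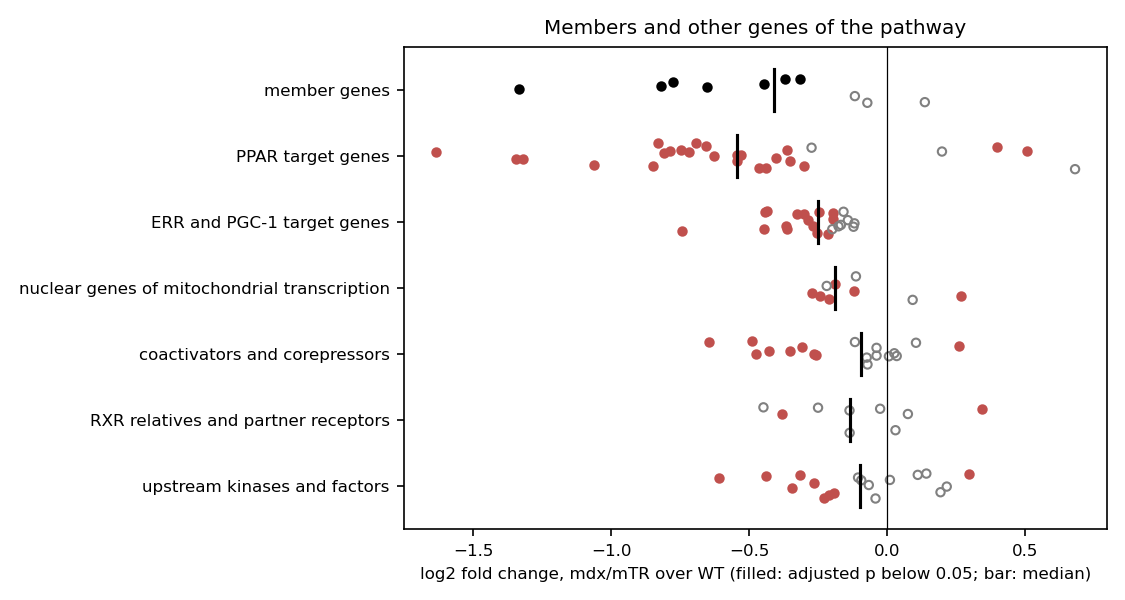
Log2 fold change, mdx/mTR over WT, of the 10 genes (top, black) and of the tested genes in each of 6 lists (red), filled where the adjusted p was below 0.05 and open where not, with the median as a bar. PPAR targets have the lowest median of the 6 lists, -0.55, with 22 of 27 filled points below 0.

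In the authors' deposited table the log2 fold changes of the 10 genes have the same signs, from -1.27 for Esrrg to 0.12 for Pparg. The authors' deposited table gives an adjusted p below 0.05 to the same 7 genes, with 0.0271 for Nrip1.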

How the data were processed

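The authors deposited whole-number counts per gene symbol, 1 column per mouse, and a table of their own comparison. FastQC, STAR, DESeq2 and the build mm10 are named in the submitters' processing notes; the annotation, counter and strand handling are not given in the sources used here. Per the file headers, the authors' table holds a mean normalized signal, a log2 fold change with its error, a test score and p-values; 0 per-sample columns were unmatched.

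Counts were tested as deposited in edgeR 4.0.16 (R 4.3.3): filterByExpr, TMM scaling, glmQLFit and glmQLFTest with group as the only term, Benjamini-Hochberg over 13937 genes, threshold 0.05. The SE is the log2 fold change divided by the square root of F. Means carry the SD over 6 mice. Member counts were 85 or more per library. Of the 50-base stretches of each member's longest coding transcript, at most 0.34% occur in another gene of GENCODE M21. Ratios used scipy 1.17.1. The fit was tested on simulated counts in which few genes changed, in equal numbers up and down. That setting is simpler than these data and does not test the scaling. Same-numbered libraries had deviations from their group means correlated from -0.155 to 0.354, so numbers were not taken as pairs.

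The members, lists and motifs were chosen with earlier results of these data known. Named genes are all members, Dmd and, per list, 5 genes: the 3 smallest p-values, the 2 most abundant, then the next p. Counts cover whole lists, and some results for single genes are not reported here. Alternatives were other filters and scalings, DESeq2 1.42.0, limma-voom (limma 3.58.1), a replicate block, a stricter threshold, another pseudocount and each library left out.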

Additional observations from a re-analysis of the deposited data

Results flagged for a closer look

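For each group of 6 values the distance from the most extreme value to its nearest neighbour was set against the whole range, with 0.625 as the limit. Of 32 such groups (10 genes and 6 ratios, WT and mdx/mTR), 1 passed, and chance gives 1.6. It was the Pparg level of WT replicate 2, 5.695 CPM, with 2.36 to 3.40 CPM in the remaining WT mice and a distance of 0.690 of the range.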

How the results depend on the processing

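Esrrg, Ppara, Ppargc1b, Rxrg, Esrra and Rxra were lower and past the threshold under all 22 alternatives, with log2 fold changes of -1.49 to -1.18 for Esrrg, -0.90 to -0.67 for Ppara and -0.41 to -0.22 for Rxra. Nrip1 kept its direction and lost its call at a mean of at least 1 CPM (-0.305) and under upper quartile scaling (-0.278). Its call was also lost by library totals (-0.165) and at an adjusted p of 0.01 (-0.317). The same held without WT replicate 2 and mdx/mTR replicate 5 together (-0.320), and in 9 of 12 fits without 1 library. Over all 12 of those fits its log2 fold change ran from -0.443 to -0.253. By library totals the signs of Ppard (0.0357) and Ppargc1a (0.0790) turned, and of all tested genes 5596 were higher and 1560 lower. Leaving out 1 library gave Ppard -0.162 to -0.0851, Pparg 0.0519 to 0.347 and Ppargc1a -0.185 to 0.0153, and 0 to 1 member past the threshold and higher. That 1 was Pparg, also without both libraries together (0.368).

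Counts in the lists moved as follows. By library totals, higher genes numbered 4 for PPAR targets, 2 for mitochondrial transcription, 4 for coactivators and corepressors, 2 for RXR relatives and 5 for upstream kinases, and lower genes numbered 6 for ERR and PGC-1 targets, 0 for mitochondrial transcription and 4 for upstream kinases. At an adjusted p of 0.01, lower genes numbered 9 for ERR and PGC-1 targets and 2 for mitochondrial transcription, and higher genes 1 for PPAR targets and 0 for the lists of mitochondrial transcription, coactivators and RXR relatives. Higher upstream kinases numbered 2 at 1 CPM, with DESeq2 and without both libraries, 4 under upper quartile scaling, and 1 to 2 without 1 library. RXR relatives had 2 higher without a filter, 0 higher and 3 lower without both libraries, and 1 to 2 higher and 1 to 3 lower without 1 library. The cause of these moves was not tested.

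With a replicate block, Rxrg relative to Rxra did not pass (-0.285, exact permutation adjusted p 0.075), and RXR relatives had 2 lower and upstream kinases 2 higher genes. The block changed no other call of a member or a ratio. For ratios it permuted within same-numbered pairs, which allows fewer arrangements, so its p cannot get as small as in the unpaired test. The ratios that kept their call each had an exact permutation adjusted p of 0.0469, close to the threshold. Of 6 same-numbered pairs, those with numbers 1 and 2 had correlated deviations (0.354 and 0.285) and the others did not exceed 0. Of 12 libraries, 4 correlated best with their own number, and the block moved the count of changed genes from 6736 to 6420. Depth limits Pparg most, with 85 to 234 counts per library.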
